A study of Mus musculus with 6 samples.

Results

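The collagen gene family was examined in RNA sequencing libraries from lungs of old and young mice after acid injury. Members were all mouse genes with a symbol made of Col, a number, a and a number. The gene name table held 44 such symbols, and 31 of them had an intact row with 6 readable values, among 19033 genes with an intact row in all. Of the other 13, 10 had no row under their identifier (Col2a1, Col3a1, Col4a4, Col5a2, Col6a1, Col6a6, Col9a1, Col9a3, Col11a2 and Col26a1) and 3 had a value that could not be read (Col6a3, Col6a4 and Col12a1), so these were not analysed here. The intact members were 7 of 11 fibrillar, 5 of 6 basement membrane, 6 of 9 FACIT and 13 of 18 other collagens.

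The series compared 3 old with 3 young C57/BL6 mice, 1 library per mouse. Mice of both groups had received acid injury, no uninjured libraries were analysed here, and the labels give neither an age in months, nor the time after injury, nor the sex. Each library is labelled as vascular endothelial cells of the lung, while the protocol speaks of homogenized tissue and names no step that isolates cells. Values are FPKM, fragments scaled to gene length and to library total, and the totals implied by the values ran from 11381122 to 17931463 fragments per library.

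Collagens are trimers of chains wound around each other through long runs of a repeated triplet that starts with glycine. Fibrillar collagens form the tensile fibrils of connective tissue and are made mainly by fibroblasts, FACITs (fibril-associated collagens with interrupted triple helices) coat those fibrils, and type IV collagen forms the sheet-like network of basement membranes under endothelium and epithelium. In the lung, the type IV network lies between capillary and alveolus, and fibrillar collagen accumulates in fibrosis.

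Promoter sequence was matched from RefSeq (GRCm38.p6) for 27 of the 31 members, among them 7 of the 9 called ones. Shown are the 150 bases before the start, 5' to 3', of those called members whose stretch lies outside annotated exons and holds a motif searched for, and of Col13a1, the tested member with the lowest log2 fold change. Capitals mark the motifs CCAAT and GGGCGG, the binding sequences of NF-Y and of Sp factors, read on either strand, where ATTGG and CCGCCC are the same motifs on the other strand. TATAAA was searched for as well. Called members were shown only if they held a motif, while Col13a1 was shown regardless, so a contrast between them follows from this choice. The called member Col6a2 has a stretch outside annotated exons with none of the motifs, and it is not shown.

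Col5a1, chr2:27886275-27886424, plus strand: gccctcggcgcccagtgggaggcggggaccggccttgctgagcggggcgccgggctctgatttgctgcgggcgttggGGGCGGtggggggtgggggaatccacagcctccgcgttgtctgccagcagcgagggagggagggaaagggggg
Col11a1, chr3:114030390-114030539, plus strand: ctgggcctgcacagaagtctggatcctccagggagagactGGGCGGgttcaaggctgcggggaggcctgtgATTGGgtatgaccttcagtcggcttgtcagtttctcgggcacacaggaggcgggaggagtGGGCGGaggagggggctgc
Col7a1, chr9:108953436-108953585, plus strand: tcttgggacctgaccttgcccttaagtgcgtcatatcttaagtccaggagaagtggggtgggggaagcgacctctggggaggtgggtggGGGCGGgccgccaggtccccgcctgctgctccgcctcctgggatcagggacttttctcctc
Col6a5, chr9:105960644-105960793, minus strand: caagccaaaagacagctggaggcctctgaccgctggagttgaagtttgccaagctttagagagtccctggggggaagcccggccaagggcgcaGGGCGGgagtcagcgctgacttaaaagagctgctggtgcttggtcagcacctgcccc
Col13a1, chr10:61979109-61979258, minus strand: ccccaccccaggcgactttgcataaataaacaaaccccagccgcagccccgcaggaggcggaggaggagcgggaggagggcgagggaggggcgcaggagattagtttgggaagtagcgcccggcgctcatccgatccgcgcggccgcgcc

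In the 250 bases before the start, GGGCGG in either direction was present in 7 of the 7 called members with a window and in 18 of all 27, against 32.7% of the 32851 promoter windows of all genes. CCAAT was present in 4 of the 7 and in 11 of the 27, against 33.8%, and TATAAA in 0 of the 7 and 3 of the 27, against 12.4%. Members were counted if any of their windows held the motif, while the shares over all genes are per window, so they are not counted alike. The counts are descriptions of short letter strings, which also follow base composition, and not of binding. In Col13a1 neither capitalised motif lies in the stretch shown, and the same holds for the stretch of the called member Col6a2 outside exons.

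The label was set against marker genes. In the endothelial list 10 of 12 tested genes were called lower in old libraries by limma (adjusted p under 0.05) and 0 were called higher. All 12 had negative log2 fold changes, old minus young. The summed level of the list was 45.5 to 161 FPKM in the old and 538 to 1507 FPKM in the young libraries. In the fibroblast list, which holds no collagen, 9 of 10 tested genes were called higher in old libraries, and all 10 had positive log2 fold changes. Its sums were 2004 to 4672 FPKM in the old and 122 to 222 FPKM in the young libraries. The mesothelial list had 3 of 6 tested genes called higher (171 to 456 against 9.33 to 40.8 FPKM), the epithelial list 3 of 6 (1291 to 1619 against 117 to 319 FPKM), the smooth muscle and pericyte list 0 of 7 (739 to 930 against 69.1 to 1336 FPKM) and the cartilage list 1 of 3 (14.97 to 15.95 against 5.05 to 14.9 FPKM). Log2 fold changes were positive for 6 of 6 mesothelial, 6 of 6 epithelial, 6 of 7 smooth muscle and pericyte and 2 of 3 cartilage genes. The macrophage list had 0 of 7 called, with sums of 408 to 2105 FPKM in the old and 216 to 2619 FPKM in the young libraries. Of the neutrophil list, also 0 of 6, the sums were 321 to 912 FPKM in the old libraries, and the young libraries spanned 53.1 to 24050 FPKM, with young mouse 1 at the low end. No list had a gene at 0 in all 6 libraries. Without the filter on level, 3 of 12 endothelial, 7 of 10 fibroblast, 1 of 6 mesothelial, 3 of 7 epithelial and 0 of 5 cartilage genes were called, in the same directions. Over all tested genes 2.95% were called higher and 2.03% lower. The summed levels of the endothelial, fibroblast, mesothelial, epithelial and cartilage lists did not overlap between the groups, and those of the smooth muscle, macrophage and neutrophil lists did. Their part in the collagen differences was not tested, and in bulk libraries fewer cells of a type and less RNA per cell cannot be told apart.

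The collagen makeup of the libraries differed between the age groups. In each old library the 3 collagen genes of highest level were Col1a1, Col1a2 and Col5a1, and in each young library the top 2 were Col4a1 and Col4a2. Summed over the 31 members, collagen stood at 518, 807 and 540 FPKM in old animals 1, 2 and 3 and at 170, 193 and 88.8 FPKM in young animals 1, 2 and 3. The fibrillar class held 74.4% ± 3.10 (SD, n = 3) of that sum in old and 16.5% ± 4.53 (SD, n = 3) in young libraries. Basement membrane collagens held 8.82% ± 1.61 in old and 58.9% ± 6.16 in young libraries, FACITs 4.01% ± 0.309 against 1.56% ± 0.362, and the other collagens 12.8% ± 2.47 against 23.1% ± 4.08 (SD, n = 3 each). Neither the 3 fibrillar nor the 3 basement membrane shares of a group overlapped those of the other group. The sums leave out Col3a1, Col5a2 and Col6a1, which have no intact row, so the shares describe the 31 intact members alone.

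**Figure D1:**
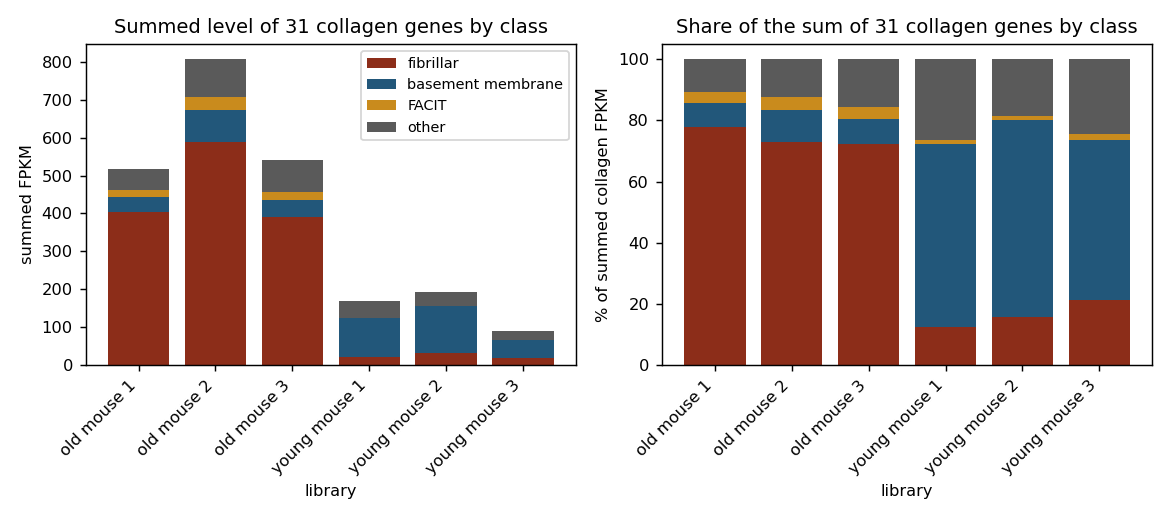
Summed FPKM of the 31 intact collagen genes by class (left) and the share of each class in that sum (right) in each library. The fibrillar block is the largest in the 3 old libraries, at 391 to 588 FPKM, and the basement membrane block is the largest in the 3 young libraries, at 46.4 to 124 FPKM.

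Of the 31 members, 17 had a mean of at least 1 FPKM over the 6 libraries and were tested among 10010 genes with limma on log2(FPKM + 1). By this test 9 of the 17 were higher in old libraries at an adjusted p under 0.05, 0 were lower and 8 did not pass. Over all genes tested, 4.98% were called, 2.95% higher and 2.03% lower. A low-level member enters the test only through the group in which it is high, so the 17 are not all members and the count is a description. Without the filter on level, 9 of the 31 members were called higher, again with 0 called lower, against 0.762% and 0.41% of the 19033 genes. The median log2 fold change, old minus young, was 1.69 over the 17 and 0.72 over the 31, against -0.01 over all genes tested. Against young mouse 1 alone, a comparison added after the data were seen because young mice 2 and 3 had far higher neutrophil sums, the count turned on how low genes were removed. With the filter on the mean of all 6 libraries, as first run, 0 of 17 tested collagens and 0 of all 10010 genes were called in the 4 libraries, the smallest adjusted p being 0.0537, while 12 collagens and 2289 genes had an unadjusted p under 0.05. With the filter on the mean of those 4 libraries, adopted after that output was seen, 7 of 19 collagens and 413 of 9920 genes were called, the smallest adjusted p being 0.0288. Old and young values did not overlap for 15 of 31 members with the old libraries higher, against 11.2% of all genes, and for 1 with the old libraries lower (Col13a1), against 12.7%.

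**Figure D2:**
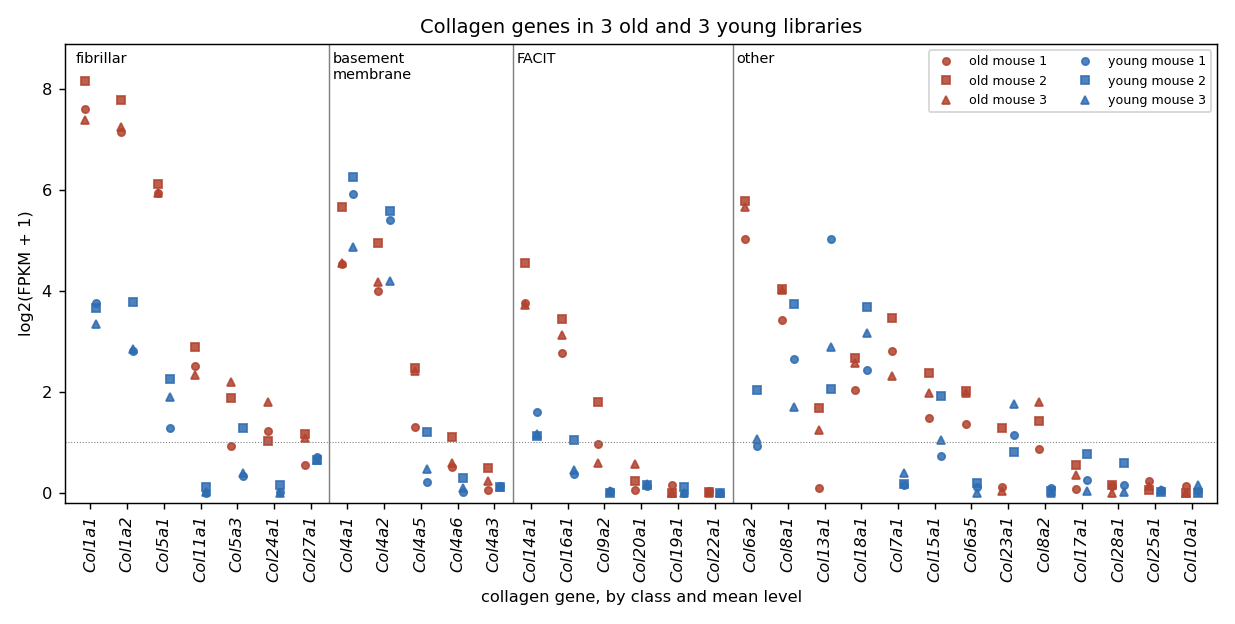
Level of the 31 intact collagen genes on log2(FPKM + 1), with 1 point per library and genes ordered by class and mean level. The dotted line marks 1 FPKM. Old libraries stand above young ones for Col1a1 (167 to 287 against 9.14 to 12.7 FPKM), while the groups overlap for Col4a1 (22.3 to 49.6 against 28.4 to 75.4 FPKM).

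Among fibrillar collagens, 4 of the 5 tested were called higher in old libraries, against 2.95% of all genes tested, and all 5 had positive log2 fold changes. Col11a1 and Col5a3 averaged 0.0305 and 0.667 FPKM in young libraries and passed the filter only through the old ones. Without the filter 4 of the 7 intact fibrillar members were called higher, against 0.762% of all genes. Of the 7 intact fibrillar members, 5 had old values above young ones without overlap, and 2 (Col5a3 and Col27a1) overlapped. Col1a1 (chr11:94936224-94953042, plus strand, GRCm38) encodes the chain present in duplicate in the type I trimer. It was at 195, 287 and 167 FPKM in old animals 1, 2 and 3 and at 12.7, 11.7 and 9.14 FPKM in young animals 1, 2 and 3. Every old library was far above every young one, and the young libraries lay close together. These values rest on 16952 to 21442 fragments per old and 894 to 1473 fragments per young library. The difference was a log2 fold change of 4.13 ± 0.28 by limma (SE, adjusted p = 0.00269).

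Col1a2 (chr6:4504814-4541544), which encodes the partner chain of type I, was at 141, 221 and 152 FPKM in the old and at 5.98, 12.8 and 6.20 FPKM in the young. The groups did not overlap, and within each group mouse 2 was highest. Its log2 fold change was 4.26 ± 0.35 (SE, adjusted p = 0.00432). Col5a1 (chr2:27886425-28039514) encodes a chain of type V, which starts type I fibrils and limits their width, and was at 60.5, 68.4 and 60.8 FPKM in the old and at 1.45, 3.76 and 2.73 FPKM in the young. The old libraries agree within 4.48 FPKM (SD, n = 3) around a mean of 63.2 FPKM, the narrowest spread relative to level among the called members. Its log2 fold change was 4.19 ± 0.29 (SE, adjusted p = 0.00269). In the annotation 212 exon bases of Col5a1 lie across from exons of 2 genes of the opposite strand, and the sources used here do not say whether the counting used strand.

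Col11a1 (chr3:114030540-114220718), a fibrillar chain best known from cartilage that also joins type V chains elsewhere, was at 4.67, 6.37 and 4.04 FPKM in old mice. Young mice 1, 2 and 3 held 0, 16 and 2 fragments of it, against 786 to 923 fragments in the old libraries. Its log2 fold change on the scale with a pseudocount of 1 was 2.53 ± 0.25 (SE, adjusted p = 0.0067), which understates the ratio of a gene so low in young mice. No ratio of group means is given, since young mice 1 and 3 lie under the floor of 3 fragments and the young mean rests on young mouse 2.

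Col5a3, another type V chain, was the tested fibrillar gene that did not pass. It was at 0.889, 2.68 and 3.59 FPKM in the old and at 0.265, 1.43 and 0.305 FPKM in the young, and old mouse 1 lay below young mouse 2. The log2 fold change was 1.00 ± 0.43 (SE, adjusted p = 0.23), with a 95% interval from -0.03 to 2.03. Both remaining fibrillar members were under the filter. Col24a1, a fibrillar chain found in developing bone and cornea, held 135, 89 and 337 fragments in old and 2, 13 and 0 fragments in young libraries (1.03 to 2.47 against 0 to 0.11 FPKM). Col27a1, a chain of cartilage, overlapped between the groups at 0.453 to 1.23 FPKM in the old and 0.574 to 0.637 FPKM in the young libraries. Without the filter the limma adjusted p was 0.0697 for Col24a1 and 0.579 for Col27a1.

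**Figure D3:**
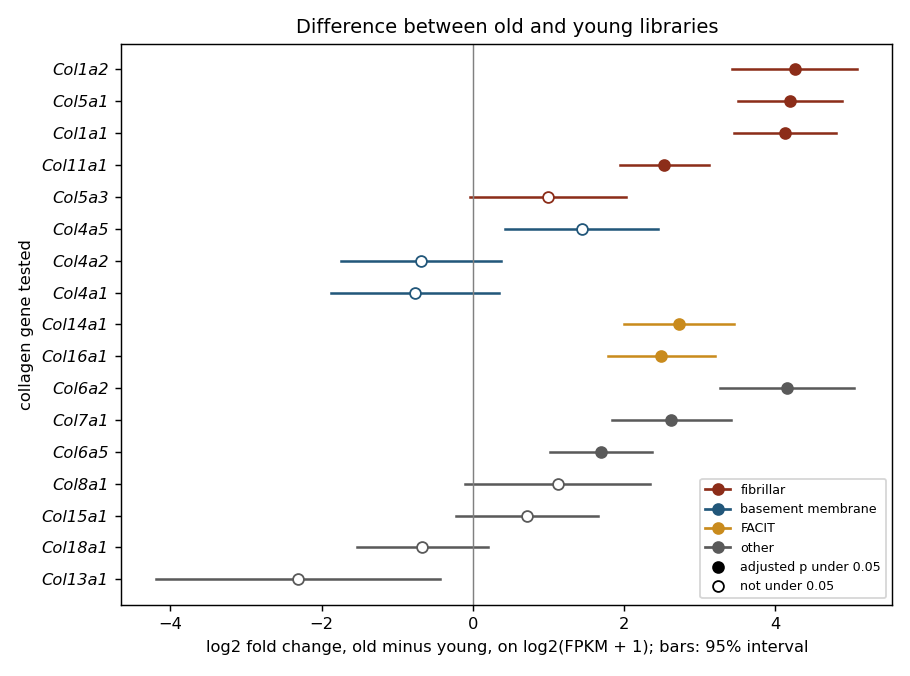
Log2 fold change, old minus young, of the 17 tested collagen genes with 95% intervals from limma, coloured by class. Filled points passed an adjusted p of 0.05. Fibrillar genes lead at 4.26 for Col1a2, while Col4a1 (-0.77) and Col4a2 (-0.69) lie below 0 with intervals that include it.

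Basement membrane collagens gave no call, and their members did not share a direction. Col4a1 (chr8:11198423-11312826, minus strand), a chain of the type IV network found in nearly all basement membranes, was at 22.3, 49.6 and 22.4 FPKM in the old and at 59.9, 75.4 and 28.4 FPKM in the young. Old mouse 2 was above young mouse 3, so the groups overlapped. The log2 fold change was -0.77 ± 0.47 (SE, adjusted p = 0.362), with a 95% interval from -1.88 to 0.34. Its partner Col4a2 (chr8:11312805-11449287, plus strand) was at 15.0, 30.2 and 17.0 FPKM in the old and at 41.5, 47.1 and 17.5 FPKM in the young, with the same order of libraries in the young group. It also overlapped, at -0.69 ± 0.44 (SE, adjusted p = 0.386) and an interval from -1.74 to 0.37. Both intervals include 0.

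The pair is transcribed in opposite directions from adjoining starts, and in the annotation their exons overlap by 22 bases. Within libraries the ratio of Col4a1 to Col4a2 was steady. It was 1.48, 1.65 and 1.31 in old and 1.45, 1.60 and 1.62 in young mice, a span of 1.31 to 1.65 over libraries in which Col4a1 itself spanned 22.3 to 75.4 FPKM. The groups did not differ in this ratio beyond their spread (exact permutation test, two-sided p = 0.7, n = 3 each; the smallest p possible is 0.1).

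Col4a5 and Col4a6, chains of type IV networks in epithelial and smooth muscle basement membranes, lie next to each other on the X chromosome. Col4a5 (chrX:141475385-141689234) was at 1.47, 4.55 and 4.35 FPKM in the old and at 0.151, 1.31 and 0.390 FPKM in the young. Old libraries were above young ones, though old mouse 1 was only slightly above young mouse 2, and the log2 fold change of 1.44 ± 0.43 did not pass (SE, adjusted p = 0.106). Col4a6 was under the filter, at 0.417 to 1.14 FPKM in the old and 0.0142 to 0.218 FPKM in the young libraries, also without overlap (adjusted p = 0.186 without the filter). The direction of both was opposite to that of Col4a1 and Col4a2. Col4a3, a chain of alveolar and glomerular basement membrane, stayed at 0.0304 to 0.397 FPKM in the old and 0.0741 to 0.0962 FPKM in the young libraries, and 563 of its exon bases lie across from a gene of the opposite strand.

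Among FACITs, both tested members were called higher in old libraries, against 2.95% of all genes tested. Col16a1 averaged 0.579 FPKM in young libraries and passed the filter only through the old ones, so the count is a description. Without the filter 2 of the 6 intact FACITs were called higher, against 0.762% of all genes. Col14a1 (chr15:55307750-55520803), which binds the surface of type I fibrils, was at 12.7, 22.6 and 12.2 FPKM in the old and at 2.04, 1.19 and 1.22 FPKM in the young, without overlap. Its log2 fold change was 2.72 ± 0.31 (SE, adjusted p = 0.00824), a call that ended against young mouse 1 alone under either filter (adjusted p = 0.0561 and 0.0829). Col16a1 (chr4:130047840-130099283), a minor component of fibrils and of microfibrils, was at 5.83, 9.94 and 7.74 FPKM in the old and at 0.301, 1.07 and 0.368 FPKM in the young. It rose by 2.49 ± 0.30 (SE, adjusted p = 0.0102), a call that ended without old mouse 3 (adjusted p = 0.0573). Young mouse 1 was the highest young library for Col14a1 and the lowest for Col16a1.

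The 4 other FACITs with an intact row were under the filter. Col9a2, a cartilage chain, had 39, 87 and 28 fragments in old and 1, 0 and 1 fragments in young libraries, which is 0.505 to 2.47 FPKM in the old and at most 0.0217 FPKM in the young. Old and young values did not overlap, and without the filter the limma adjusted p was 0.15. Col19a1 and Col20a1 overlapped between the groups, at no more than 37 fragments in any library. Col22a1 had 2, 1 and 0 fragments in old and 0 in each young library, at or under the floor of 3 fragments per library, so no difference was detectable at this depth.

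Of the 7 other collagens tested, 3 were called higher in old libraries, against 2.95% of all genes tested, and 4 did not pass. Col6a5 and Col7a1 averaged 0.0735 and 0.183 FPKM in young libraries and passed the filter only through the old ones. Without the filter 3 of the 13 intact members of this class were called higher, against 0.762% of all genes. Col6a2 (chr10:76595762-76623630), a chain of the beaded microfilaments around cells, was at 31.8, 54.5 and 49.5 FPKM in the old and at 0.901, 3.10 and 1.10 FPKM in the young. Every old library was far above every young one, and the log2 fold change was 4.15 ± 0.37 (SE, adjusted p = 0.00539). Col6a5, a related long chain, was far lower, at 1.57, 3.06 and 2.95 FPKM in the old and at 0.0838, 0.137 and 0 FPKM in the young. It rose by 1.69 ± 0.28 (SE, adjusted p = 0.0257), but the call ended without any 1 of the young libraries (adjusted p 0.0521 to 0.0744), at a pseudocount of 0.01 (adjusted p = 0.071) and against young mouse 1 alone.

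Col7a1 (chr9:108953586-108984875) encodes the anchoring fibrils that tie epithelial basement membrane to the stroma. It was at 6.04, 10.02 and 3.96 FPKM in the old and at 0.104, 0.132 and 0.313 FPKM in the young. The old values differ among themselves by more than those of Col5a1, yet each is above all young ones, with a log2 fold change of 2.62 ± 0.33 (SE, adjusted p = 0.0119). Against young mouse 1 alone, in the 4 libraries that leaves, the call ended under either filter (adjusted p = 0.0565 and 0.0862). The microRNA gene Mir711 shares 36 exon bases with Col7a1 on the same strand.

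Col8a1 and Col8a2 encode short network-forming chains of the subendothelial matrix and of corneal membranes. Col8a1 was at 9.67, 15.4 and 15.3 FPKM in the old and at 5.32, 12.5 and 2.25 FPKM in the young, overlapped, and did not pass (1.12 ± 0.51, SE, adjusted p = 0.249). Col8a2 held 49, 85 and 198 fragments in old and 5, 2 and 0 fragments in young libraries, and without the filter its adjusted p was 0.0768. Col10a1, the short chain of hypertrophic cartilage, had at most 5 fragments in any library.

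Col13a1 (chr10:61838236-61979108), a transmembrane collagen of cell adhesion sites, had the lowest log2 fold change of the 17 tested members. It was at 0.0657, 2.21 and 1.37 FPKM in the old and at 31.5, 3.13 and 6.38 FPKM in the young, which is 4, 116 and 113 against 2572, 224 and 438 fragments. All young libraries were above all old ones, but young mouse 1 was far above the other young libraries and old mouse 1 far below the other old ones. The log2 fold change of -2.31 ± 0.79 did not pass (SE, adjusted p = 0.144). It was -1.46 without young mouse 1 (adjusted p = 0.21), and against young mouse 1 alone it was -4.02. Young mouse 1 was also the library with the lowest neutrophil sum. Pecam1 and Cdh5 were highest among young libraries in young mouse 1 (111 and 75.0 FPKM), as were most genes of the endothelial list. Both were lowest among old libraries in old mouse 1 (3.73 and 1.75 FPKM). Whether the cell makeup of these libraries bears on Col13a1 was not tested. The transmembrane gene Col23a1 was at 0.0791, 1.44 and 0.0194 FPKM in the old and at 1.20, 0.753 and 2.39 FPKM in the young, with overlap through old mouse 2. Col17a1 and Col25a1 were under 0.7 FPKM in every library.

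The multiplexins Col15a1 and Col18a1 link basement membranes to the matrix beside them, and Col18a1 carries the endostatin fragment. Neither passed. Col18a1 (chr10:77052178-77166548) was at 3.12, 5.38 and 4.94 FPKM in the old and at 4.42, 11.8 and 8.03 FPKM in the young, with a log2 fold change of -0.67 ± 0.37 (SE, adjusted p = 0.319). Col15a1 was at 1.79, 4.19 and 2.93 FPKM in the old and at 0.649, 2.78 and 1.06 FPKM in the young (0.72 ± 0.40, SE, adjusted p = 0.322). The groups overlapped for both, in opposite directions. Col28a1 had 38 fragments in young mouse 2 and at most 10 in any other library.

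The highest library of a group was mostly the same across members, while the lowest varied more. Old mouse 2 was the highest old library for 16 of the 17 tested members, the exception being Col5a3, and old mouse 1 was the lowest for 13. Among the 9 called members, old mouse 1 was lowest for 5 and old mouse 3 for 4. Among young libraries, young mouse 2 was highest for 13 of 17, and young mouse 1 was lowest for 10 but highest for Col1a1, Col13a1 and Col14a1. Members are not replicates, and all 17 values of a library share its depth and cell makeup.

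Ratios of 2 genes were taken within each library. Col1a1 to Col1a2 was 1.39, 1.30 and 1.09 in old and 2.12, 0.917 and 1.47 in young mice, with overlap (exact permutation test, two-sided p = 0.7). The ratio of Col1a1 to Col4a1 was 8.751, 5.787 and 7.453 in old and 0.211, 0.155 and 0.322 in young mice. The groups were apart by 5.04 on the log2 scale, with an exact permutation p of 0.1, the smallest this design allows, and 0.267 adjusted over the 8 ratios computed. Col5a1 to Col1a1, a ratio that was not planned, overlapped, at 0.238 to 0.365 in old and 0.114 to 0.320 in young mice (exact p = 0.6).

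Other ratios, also not planned, were chosen after the values had been seen. Col4a1 to Pecam1, the endothelial junction gene at 3.73 to 7.90 FPKM in the old and 40.1 to 111 FPKM in the young libraries, was 5.99, 8.23 and 2.83 in old and 0.539, 0.940 and 0.709 in young mice. Col18a1 to Pecam1 was 0.838, 0.893 and 0.626 in old and 0.0397, 0.147 and 0.201 in young mice. Neither ratio overlapped between the groups, but neither passed (exact p = 0.1 each, the smallest this design allows, 0.267 adjusted). Col13a1 to Pecam1 overlapped fully, at 0.0176 to 0.367 in old and 0.0391 to 0.283 in young mice (exact p = 1). Col1a1 to Lum, a proteoglycan gene of fibroblasts, overlapped at 0.326 to 0.515 in old and 0.512 to 0.970 in young mice (exact p = 0.2).

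**Figure D4:**
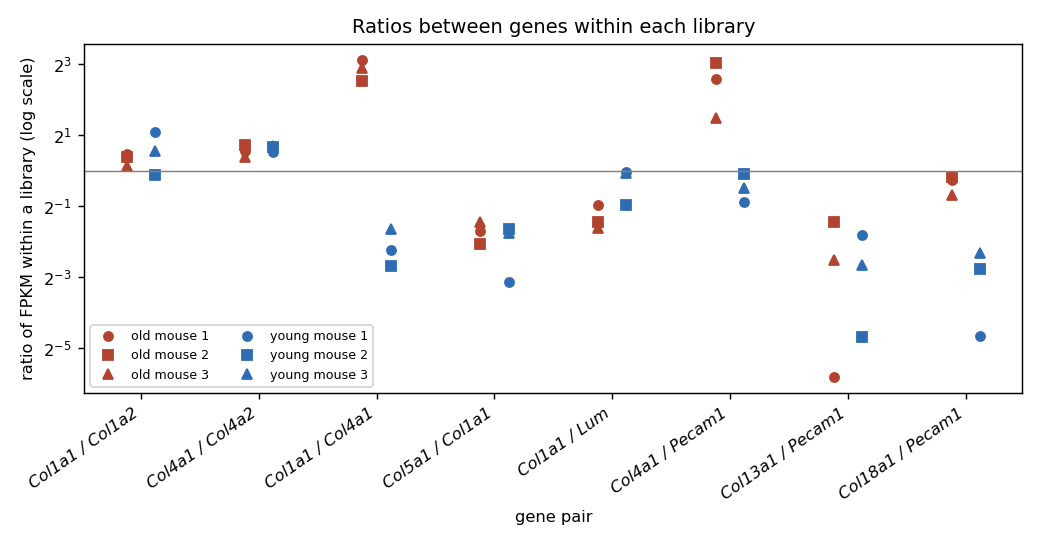
Ratio of the FPKM of 2 genes within each library, on a log scale, with 1 point per library. Col1a1 over Col4a1 is above 5 in each old and below 0.4 in each young library, whereas Col4a1 over Col4a2 lies between 1.31 and 1.65 in all of them.

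Genes that process collagen were only partly higher in old libraries. Of 29 maturation genes 20 had an intact row and 17 were tested. Of these, 5 were called higher, 0 were called lower and 12 did not pass, against 2.95% of all tested genes called higher and 2.03% lower. The median log2 fold change was 0.54, and 13 of the 17 were positive. Without the filter on level only Lox of the list was called (adjusted p = 0.049), and the other 4 had adjusted p of 0.0691 to 0.0885. Among the 20, old values lay above young ones without overlap for 7 and below them for 4 (Plod1, Plod3 and P3h2, which did not pass, and Tll1, under the filter). Lox, the lysyl oxidase that starts cross-linking, was at 17.7, 36.8 and 27.0 FPKM in the old and at 2.49, 6.52 and 3.49 FPKM in the young and rose by 2.46 ± 0.39 (SE). The other 4 were Pcolce, which enhances removal of the C-terminal propeptide (2.38 ± 0.51, adjusted p = 0.0499), Bmp1, the proteinase that removes it (2.33 ± 0.43), Plod2, a lysyl hydroxylase of telopeptides (2.17 ± 0.43), and the chaperone gene Fkbp10 (1.63 ± 0.33). Serpinh1, the chaperone HSP47, did not pass at 94.3, 169 and 175 FPKM in the old and 166, 137 and 57.1 FPKM in the young.

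Of 5 tested collagen receptor genes 0 were called, and the median log2 fold change was 0.06, a value whose sign was not stable, since it ran from -0.84 to 0.91 with 1 library left out and was -1.07 with the filter at 5 FPKM. The integrin subunit genes Itgb1 and Itga1, the tested receptor genes of highest level, had negative log2 fold changes, with Itgb1 at 43.7 to 66.4 FPKM in the old and 88.8 to 166 FPKM in the young libraries and Itga1 at 3.15 to 5.93 against 9.91 to 23.7 FPKM. Neither overlapped and neither passed. The collagen-binding kinase genes Ddr1 (1.21, adjusted p = 0.126) and Ddr2 (1.29, adjusted p = 0.0872), named after their values were seen, had positive log2 fold changes without overlap and did not pass either. The integrin genes Itga2, Itga10 and Itga11 were under the filter, at 0.20, 0.14 and 0.56 on the log2 scale without it, and of these Itga11 was higher in old libraries without overlap. Of 5 tested genes for collagen breakdown 2 were called higher and 0 lower, against 2.95% and 2.03% of all tested genes. Log2 fold changes were positive for 3 of the 5 and negative for 2. Mmp2, a gelatinase, was at 78.0, 162 and 133 FPKM in the old and at 3.88, 5.85 and 4.97 FPKM in the young and rose by 4.36 ± 0.33 (SE), as much as the type I chains. The collagenolytic protease gene Ctsk, at 79.3, 151 and 119 against 9.89, 6.78 and 6.79 FPKM, rose by 3.70 ± 0.31. Mmp8 and Mmp9, which neutrophils carry, stood at 21.8 to 87.4 FPKM in the young 2 and 3 and under 10 FPKM elsewhere.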

How the data were processed

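RNA sequencing was read from 6 tables, 1 per mouse, in which the authors deposited FPKM values per Ensembl gene without counts, per the file headers. Names found in the submitters' processing notes are mm8, Bowtie 0.12.2 and CASAVA 1.7, with no role given. Which counter and annotation were used is not stated in them. The members and lists were chosen with earlier results of these data known.

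Each table had 24720 rows, many of them damaged, with altered characters in identifiers or values. Rows were kept where the identifier was well formed, unique and named, all 6 values were numbers, and 1 whole-base gene length gave whole fragments in all 6 libraries. Of 19063 readable rows 26 failed this test, and 19037 rows were kept. No value was repaired. The 18 further columns of each table were not used. Implied totals were not whole numbers, so a scaling by the authors may lie inside them. The floors of 3 fragments cover counting error only, while the intervals come from limma and rest on the spread between libraries. For 78.85% of the rows kept, the implied length was the merged exon length of GENCODE M21, whose GRCm38 coordinates are given, although the notes name mm8.

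Genes with a mean of at least 1 FPKM over the libraries fitted entered limma 3.58.1 (R 4.3.3) as log2(FPKM + 1) (eBayes with a trend, two-sided, Benjamini-Hochberg over 10010 genes, threshold 0.05), checked on simulated data. Ratios were tested with exact permutation in scipy 1.17.1. The labels name separate mice, so p-values measure the spread between mice. For fits that leave libraries out, the filter was first the mean of all 6 libraries and was changed to the mean of those fitted after the first output was seen; both are reported. Alternatives were pseudocounts of 0.1 and 0.01, other filters, 2 scalings, no trend, library weights, a block and each library left out. All members are named; of the other lists, up to 5 called genes by size of change were named, or else the 2 of highest level, and Pdgfra, planned as well, had no intact row. Serpinh1, Mmp8, Mmp9, Plod1, Plod3, P3h2, Tll1, Ddr1, Ddr2, Itga2, Itga10 and Itga11 were added after their values were seen. The planned ratio of Col1a1 to Col3a1 could not be computed.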

Additional observations from a re-analysis of the deposited data

How the results depend on the processing

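Directions held for all 17 tested members under every alternative in which they were tested. Calls for Col1a1, Col1a2, Col5a1, Col6a2 and Col11a1 held wherever these were tested, with 1 exception: against young mouse 1 alone with the filter on the mean of all 6 libraries, where their adjusted p was 0.0537 to 0.066. The genes called numbered 498, and 323 at a pseudocount of 0.01, 223 without a filter, 292 with a filter at 5 FPKM and 84 to 395 with 1 library left out; collagens called were 9, and 5 of 10 tested with the filter at 5 FPKM, and 7 to 9 with 1 library left out. The median over tested collagens, 1.69, was 3.31 and 3.39 at pseudocounts of 0.1 and 0.01, 0.72 without a filter and 1.26 to 1.86 with 1 library left out. Without a filter the class medians were 2.53 (fibrillar), 0.13 (basement membrane, against -0.69 for the 3 tested), 0.62 (FACIT) and 0.10 (other), where the genes added are low. FACITs gave 3.50 and 3.66 at the 2 lower pseudocounts, and the other collagens 0.23 with the filter at 5 FPKM and 0.70 to 1.31 with 1 library left out. The receptor list moved from 0.06 to 0.42 (pseudocount 0.01), -1.07 (filter at 5 FPKM) and -0.84 to 0.91 with 1 library left out; the cause was not tested.

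Mouse numbers are shared between the groups, but the labels name different mice, so libraries were not paired. Deviations from the group means correlated at r = -0.094, -0.003 and 0.010 for same-numbered libraries. Differently numbered ones ran from -0.177 to 0.158. With 3 libraries per group these values cannot decide on pairing. With a replicate block 126 genes and 7 collagens were called, without Col6a5 (adjusted p = 0.0885) and Col7a1 (adjusted p = 0.0535).

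Comparisons with young mouse 1 alone were added after seeing the data, and a lone library is assumed to vary like the others. With the filter on all 6 libraries, the version run first, 0 genes and 0 collagens were called in the 4 libraries. With the filter on the 4 libraries, chosen after that 0 was seen, 413 genes and 7 collagens were called (6 higher, Col13a1 lower), so these counts rest on that choice. The smallest adjusted p moved only from 0.0537 to 0.0288 across the threshold. For fits without 1 library the choice moved the count of genes by 9 or fewer and the collagens not at all. With the spread taken from all 6 libraries, 612 genes and 9 collagens were called (8 higher, Col13a1 lower). The fibrillar median was 3.26 with the filter on the 4 libraries, and the lists gave 0.18 (maturation), 1.44 (receptors) and 2.39 or, with the all-library filter or spread, 1.4 (breakdown). With 1 library left out, the log2 ratio of Col1a1 to Col1a2, old minus young, ran from -0.49 to 0.11 and that of Col4a1 to Col4a2 from -0.16 to 0.0068, both changing sign.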
